A study of Mus musculus with 14 samples.

Results

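The Cyp3a genes encode cytochrome P450 enzymes that oxidize steroids, bile acids and a large share of drugs in the endoplasmic reticulum of hepatocytes, with electrons supplied by the reductase Por. They are known to be switched on through ligand-activated nuclear receptors, chiefly Nr1i2 (the pregnane X receptor) and Nr1i3 (the constitutive androstane receptor). In the mouse, some members are known for sex-dependent expression in adult liver, where the pituitary growth hormone secretion pattern is a main source of sex differences. The 9 genes described here were chosen by family name, as Cyp3a11, Cyp3a13, Cyp3a16, Cyp3a25, Cyp3a41a, Cyp3a41b, Cyp3a44, Cyp3a57 and Cyp3a59, out of 19751 genes that could be named on the array. Probes were assigned to a gene through their transcript accession, which gave 11 probes for 8 of the 9 genes out of 39429 probes in all. No probe carried an accession of Cyp3a41a, so its level was not analysed here, and whether the Cyp3a41b probe also bound its transcripts was not tested.

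Liver RNA came from CD-1 outbred mice of both sexes, with no genetic change and no treatment, killed at 3 wk (groups M3 and F3), 4 wk (M4 and F4) or 8 wk of age (M8 and F8); 3 and 4 wk precede puberty, and 8 wk is young adulthood. Each array compared 2 pools of RNA from several mice, in red and green, and each of 7 comparisons was made on 2 arrays with separate pools and opposite dyes, 14 arrays in all: male over female at each age (M3/F3, M4/F4, M8/F8) and 8 wk over younger within each sex (M8/M3, M8/M4, F8/F3, F8/F4). Pooling leaves the spread between single mice unmeasured. In whole liver, fewer cells of a type and less RNA per cell cannot be told apart. All values are log2 ratios, where -1 is a level lower by a factor of 2, unless an intensity is named. A probe was called in a comparison when limma's test gave an adjusted p under 0.05 (Benjamini-Hochberg over all probes and all 7 comparisons), the fitted ratio was above 1.5 or below its inverse, and 1 group or both stood well above background on its 2 arrays.

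Between 55.2% and 77.2% of spots in a channel (median 66.5%) were well above background, and all 11 Cyp3a probes were so in 28 of 28 channels, with none saturated. The male pools carried the Y-linked transcripts and the female pools Xist at each age, as labelled (M8/F8 was 6.58 for Ddx3y and -6.65 for Xist). The 4 hepatocyte markers with a probe (Alb, Apoa1, Ttr and Fgb) were well above background in every channel. Of the enterocyte markers, cells that also use Cyp3a genes, Alpi was well above background in only 2 of 28 channels, while Fabp2 was so in all 28. Arrays that share a group share pools, so the comparisons are not independent of each other.

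By promoter sequence alone the members fell into families, and the sequences are shown because the 3 members called below all came from 1 of them. RefSeq held a start site for each of the 9 genes, all on chromosome 5 of GRCm38.p6. Over 300 bases (250 before to 50 after the start), the windows of Cyp3a16, Cyp3a41a, Cyp3a41b and Cyp3a44 were 90.5% to 97.3% identical in their 6 pairings, and those of Cyp3a25, Cyp3a57 and Cyp3a59 were 89.7% to 95.7% identical in 3 pairings. Between these families identity was 53.4% to 56.9%. Cyp3a11 stood at 71.0% to 75.5% to the first family and 54.2% to 57.0% to the second, and Cyp3a13, whose start lies away from the others, at 51.2% to 56.9% to all 8. The 250 bases before the start are printed for 3 members of the first family, for Cyp3a11 and for Cyp3a25 as an example of the second. Capitals mark matches to the motifs searched.
Cyp3a44 (chr5:145805875-145806124, minus strand): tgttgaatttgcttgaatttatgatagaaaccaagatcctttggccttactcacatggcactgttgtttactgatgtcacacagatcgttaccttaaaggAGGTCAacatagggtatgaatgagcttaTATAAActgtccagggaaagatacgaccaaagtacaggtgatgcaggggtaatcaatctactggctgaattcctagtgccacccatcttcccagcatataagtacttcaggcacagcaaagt
Cyp3a41b (chr5:145584731-145584980, minus strand): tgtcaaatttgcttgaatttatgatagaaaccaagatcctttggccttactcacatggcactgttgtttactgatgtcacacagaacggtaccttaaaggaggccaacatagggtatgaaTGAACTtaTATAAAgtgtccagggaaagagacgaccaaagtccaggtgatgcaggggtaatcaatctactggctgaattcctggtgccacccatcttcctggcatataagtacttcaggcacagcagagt
Cyp3a16 (chr5:145469724-145469973, minus strand): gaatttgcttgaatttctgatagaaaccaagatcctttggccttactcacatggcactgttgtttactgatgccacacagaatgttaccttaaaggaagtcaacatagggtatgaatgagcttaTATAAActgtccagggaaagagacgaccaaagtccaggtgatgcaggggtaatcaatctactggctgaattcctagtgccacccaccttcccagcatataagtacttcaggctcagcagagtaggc
Cyp3a11 (chr5:145879855-145880104, minus strand): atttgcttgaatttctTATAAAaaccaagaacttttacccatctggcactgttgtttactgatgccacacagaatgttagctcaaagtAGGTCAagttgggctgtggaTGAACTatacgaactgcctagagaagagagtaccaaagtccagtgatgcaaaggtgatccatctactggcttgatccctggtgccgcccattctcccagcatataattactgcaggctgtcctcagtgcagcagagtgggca
Cyp3a25 (chr5:146009619-146009868, minus strand): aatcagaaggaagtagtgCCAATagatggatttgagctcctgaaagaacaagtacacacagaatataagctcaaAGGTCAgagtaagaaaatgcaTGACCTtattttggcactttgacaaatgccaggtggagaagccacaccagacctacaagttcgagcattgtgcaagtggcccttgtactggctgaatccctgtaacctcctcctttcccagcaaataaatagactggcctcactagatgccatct

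The search covered both strands for the nuclear receptor hexamers AGTTCA and AGGTCA, the STAT site TTCNNNGAA, the CAAT box CCAAT, the C/EBP site TTGCAAC and the TATA box TATAAA. The hexamer AGGTCA stood in 5 of the 9 windows, against 16.3% of 32851 windows of all genes, and AGTTCA in 3 of 9, against 14.0%. Within the first family the hexamers differed: Cyp3a44 held AGGTCA at -150, Cyp3a41a and Cyp3a41b held AGTTCA on the opposite strand at -130, 2 bases before TATAAA, and Cyp3a16 held neither. TATAAA was found in 5 of 9 windows, in Cyp3a11 and in the whole first family, against 13.6% of all windows. It stood at -234 in Cyp3a11, at -126 in Cyp3a16 and at -122 in Cyp3a41a, Cyp3a41b and Cyp3a44. Whether it serves as a TATA box at these positions was not tested. Windows of a family are near copies, so their matches are not separate observations. Cyp3a25, Cyp3a57 and Cyp3a59 each held AGGTCA on both strands with starts 21 bases apart, wider than the limit of 16 bases set for a pair, so no member window counted as holding a pair (0.776% of all windows did). CCAAT was found in 3 windows (37.4% of all), and neither the STAT site (8.30%) nor the C/EBP site (2.16%) in any. These are matches of letters and were not tested for binding.

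**Figure D1:**
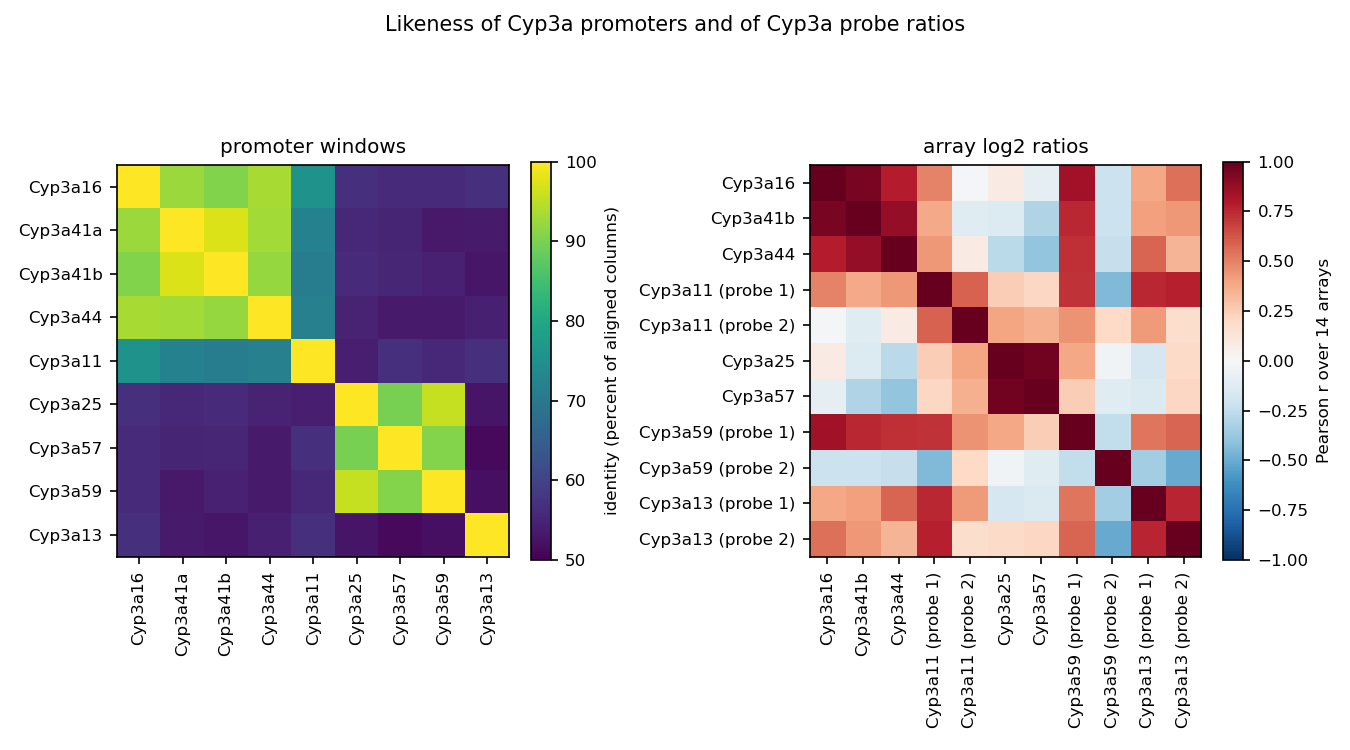
Left, percent identity of aligned columns between the 300-base promoter windows of the 9 Cyp3a genes; right, Pearson r of the log2 ratios of the 11 Cyp3a probes over the 14 arrays. The window of Cyp3a16 is 90.5% to 93.4% identical to those of Cyp3a41a, Cyp3a41b and Cyp3a44, and its probe correlates with that of Cyp3a41b at r = 0.947.

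At 8 wk, 3 Cyp3a genes were lower in male than in female liver, Cyp3a44, Cyp3a41b and Cyp3a16, and no member was higher. These 3 of 11 probes compare with 3.49% of the 23296 sufficiently bright probes called lower in M8/F8. The remaining 8 probes, for Cyp3a11, Cyp3a13, Cyp3a25, Cyp3a57 and Cyp3a59, did not pass the test. The median over the 11 probes was 0.00, beside 0.01 over all bright probes.

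Cyp3a44, a steroid-oxidizing member, had M8/F8 log2 ratios of -6.41 and -7.05 on the 2 arrays. Its processed intensity was 264 and 231 in the male channels of those arrays and 22430 and 30730 in the female channels. Over all arrays with an 8 wk pool, the male intensities ran from 231 to 471 (median 303, 6 channels) and the female from 22050 to 44860 (median 27860, 6 channels). The channels of a group are repeat readings of the pools that arrays share. The fitted ratio was -6.73 ± 0.26 (SE, n = 2 arrays; limma adjusted p = 7.7e-05), which is 106-fold lower in male liver. Even at the male level the probe was well above background on all arrays, at 0.101% of the scanner's saturation value or more.

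Cyp3a41b, the near copy of Cyp3a41a, had ratios of -2.39 and -2.77 in M8/F8. The fitted ratio was -2.58 ± 0.23 (SE, n = 2 arrays; limma adjusted p = 0.00087), or 5.98-fold lower in male liver. Its processed intensity was 12910 to 31460 in M8 and 74260 to 106800 in F8 channels. Cyp3a16, known as a Cyp3a form of fetal and young liver, had ratios of -1.79 and -1.39 and a fitted ratio of -1.59 ± 0.19 (limma adjusted p = 0.0024), or 3.02-fold lower. Its processed intensity was 16980 to 49570 in M8 and 58900 to 90250 in F8 channels. The study describes this probe as also binding Cyp3a11 transcripts, so its ratios may understate those of the Cyp3a16 transcript. The 95% intervals were -3.13 to -2.03 for Cyp3a41b and -2.04 to -1.15 for the Cyp3a16 probe, beside -7.34 to -6.13 for Cyp3a44, and the differences between these probes were not tested.

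Of the members that were not called, Cyp3a11, a main pregnane-inducible form, gave -0.41 and 0.22 with its 2 probes. Cyp3a25 gave 0.11, Cyp3a57 0.19, Cyp3a13 0.00 and 0.10, and Cyp3a59 -0.38 and 0.01. The 95% intervals of these 8 ratios lay within -0.88 and 0.84, the first bound for 1 Cyp3a11 probe and the second for the other. All 3 calls of the M8/F8 comparison held in each of the 15 alternative settings run for them. The 5 Kupffer cell markers moved the same way, from -0.54 to -1.05 in M8/F8 with 3 of 5 called lower, and their summed intensity was 12330 to 18390 in M8 and 20010 to 30260 in F8 channels. The 1 marker of another cell type called higher in M8/F8 was the erythroid Alas2, at 1.89 (0.78 in M4/F4, also called). Their part in the Cyp3a values was not tested.

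**Figure D2:**
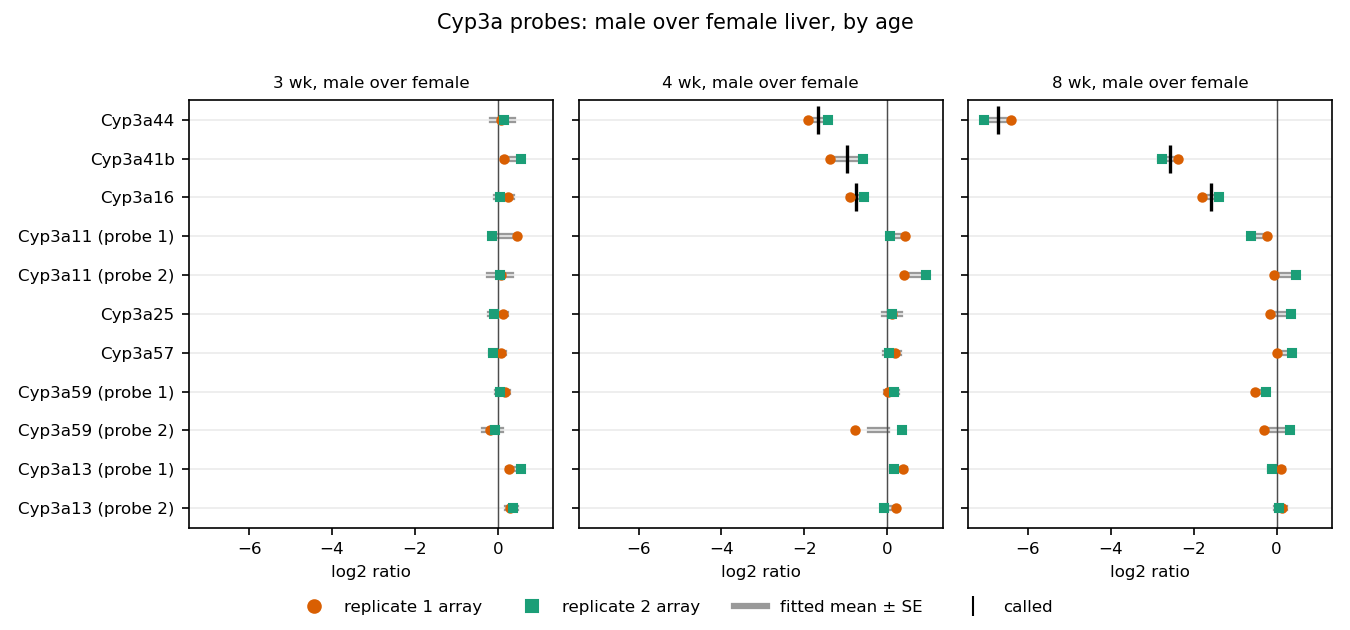
Log2 ratio of male over female liver (x axis) for the 11 Cyp3a probes at 3, 4 and 8 wk; points are the single arrays, grey bars the fitted mean ± SE and black ticks mark called probes. The Cyp3a44 arrays lie at -6.41 and -7.05 at 8 wk, and at 0.07 and 0.16 at 3 wk.

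At 3 wk, before puberty, no Cyp3a probe was called between the sexes (limma, 0 of 11 probes, with 2 at an unadjusted p under 0.05, both for Cyp3a13), where 0.464% of 22629 bright probes were called in either direction. Cyp3a44 had ratios of 0.07 and 0.16, Cyp3a41b of 0.14 and 0.57, and Cyp3a16 of 0.24 and 0.06, so all 6 values lay on the male side of 0. The fitted ratios were 0.11, 0.35 and 0.15, with 95% intervals of -0.49 to 0.72, -0.19 to 0.90 and -0.29 to 0.60. Of the 11 Cyp3a probes, 7 lay above 0 on both M3/F3 arrays and 1 below 0 on both. Lying on the male side was thus not particular to these genes. Cyp3a13, a member also used in the intestine, gave 0.40 and 0.33 with its 2 probes (limma adjusted p = 0.15 and 0.10). Without replicate 1, which leaves 1 M3/F3 array, the first of these probes stood at 0.74. That lies above both of its array values (0.26 and 0.55), because the dye term was refitted.

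At 4 wk, the same 3 genes were lower in male liver, by smaller amounts, and these 3 of 11 probes compare with 0.889% of 22149 bright probes called lower in M4/F4. Cyp3a44 had ratios of -1.90 and -1.42, with a fitted ratio of -1.66 ± 0.26 (SE, n = 2 arrays; limma adjusted p = 0.0066), or 3.17-fold lower. Cyp3a41b had -1.37 and -0.59 (fitted -0.98 ± 0.23, adjusted p = 0.033), and Cyp3a16 had -0.90 and -0.57 (fitted -0.74 ± 0.19, adjusted p = 0.043). On both arrays all 3 were below 0, but the values of Cyp3a41b were spread widely. The second probe of Cyp3a11 had the highest ratio of the family, 0.41 and 0.94, without passing the test (limma adjusted p = 0.15), while its first probe gave 0.42 and 0.08. With a term for the replicate number as a block, that second probe was called higher in males, at 0.67 (limma adjusted p = 0.029). It was also called with 6 group means (0.67, limma adjusted p = 0.037) and with averages weighted by the scanner software's errors (0.66).

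In M4/F4 the 5 Kupffer cell markers lay between -0.69 and -0.24, with Marco called lower (-0.69), and their summed intensity was 18970 to 25330 in M4 and 22630 to 30950 in F4 channels. Their part in the Cyp3a values was not tested.

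The 4 wk calls rested on few arrays. Without replicate 1, none of the 3 was called: Cyp3a44 stood at -1.36 (limma adjusted p = 0.075), Cyp3a41b at -0.54 (0.30) and Cyp3a16 at -0.45 (0.36). Without replicate 2, Cyp3a16 was not called (-1.03, adjusted p = 0.052). With the pools that arrays share in the covariance, Cyp3a41b was not called (-0.98, limma adjusted p = 0.094). With p-values adjusted within the comparison alone, or with a dye term for each pair of slides, Cyp3a44 was the only member called.

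The growth of the sex difference from 3 to 8 wk was tested as a difference of ratios, on the age arrays as M8/M3 minus F8/F3. The difference was -6.82 ± 0.36 (SE) for Cyp3a44, -2.80 ± 0.33 for Cyp3a41b and -1.36 ± 0.26 for Cyp3a16, with limma adjusted p of 0.00097, 0.0082 and 0.040. These 3 of 11 probes, all lower in males, compare with 1.55% of 26409 bright probes. The sex arrays, which hold other hybridizations of the same groups, gave -6.85, -2.93 and -1.74 for M8/F8 minus M3/F3 (adjusted p = 0.0010, 0.0069 and 0.018). From 4 to 8 wk, Cyp3a44 differed by -4.76 ± 0.36 on the age arrays (adjusted p = 0.0056) and was the only member called, 1 of 11 beside 0.543% of 27077 bright probes. Over the same interval Cyp3a41b gave -1.29 (adjusted p = 0.14) and Cyp3a16 -0.65 (0.36). With the replicate block, the brighter Cyp3a11 probe was called too (-0.59, limma adjusted p = 0.048). With 6 group means, Cyp3a41b (-1.44, limma adjusted p = 0.0026) and Cyp3a16 (-0.71, 0.031) were called. Averages weighted by the scanner software's errors also called Cyp3a41b (-1.28).

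For Cyp3a44 both differences held in all 18 alternative settings. The Cyp3a41b difference from 3 to 8 wk was lost only without replicate 1 of M8/M3 (-2.60, limma adjusted p = 0.057), whereas the Cyp3a16 difference was lost without any 1 of the 4 arrays involved (-1.65 to -1.07, adjusted p = 0.066 to 0.19). With all arrays kept, the Cyp3a16 difference was also lost with shared pools in the covariance (adjusted p = 0.059) and with a dye term for each pair of slides (adjusted p = 0.051). The step from 3 to 4 wk was not called for any member on the sex arrays: M4/F4 minus M3/F3 was -1.78 for Cyp3a44 (limma adjusted p = 0.30), -1.33 for Cyp3a41b (0.37) and -0.89 for Cyp3a16 (0.49).

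Within males, Cyp3a44 and Cyp3a41b fell from the younger ages to 8 wk. Cyp3a44 had M8/M3 ratios of -6.67 and -6.24, fitted at -6.46 ± 0.26 (SE, n = 2 arrays; limma adjusted p = 8.5e-05), or 87.9-fold. Its M8/M4 ratios were -4.95 and -5.74, fitted at -5.34 ± 0.26 (adjusted p = 0.00013), or 40.6-fold. Cyp3a41b had M8/M3 ratios of -1.53 and -1.22 (fitted -1.37 ± 0.23, adjusted p = 0.0093) and M8/M4 ratios of -0.78 and -1.19 (fitted -0.99 ± 0.23, adjusted p = 0.032). The 2 of 11 probes lower in each comparison stand beside 8.56% of 25342 bright probes in M8/M3 and 5.43% of 26533 in M8/M4. Cyp3a16 gave -0.59 (adjusted p = 0.091) and -0.53 (0.12) and was not called. Its M8/M3 ratio was called with the replicate block (-0.59, limma adjusted p = 0.024), with 6 group means (-0.68, 0.011), with normexp and loess (-0.63, 0.038) and when only probes well above background were tested (-0.59, 0.0498).

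Markers of other cell types moved in the same comparisons. Of 23 with a probe, 7 were called lower and 1 higher in M8/M3, and 6 lower and 1 higher in M8/M4. Of the erythroid markers, the hemoglobin gene Hba-a1 was lower (-1.18 and -0.96), and the heme enzyme Alas2 was the 1 called higher (1.37 and 0.98). Of the endothelial markers, Lyve1 was lower (-1.20 and -0.85), while Stab2 (-0.31 and -0.19) and Clec4g (-0.03 and -0.07) were not called. Of the hepatocyte markers, only Alb was called lower (-0.71 and -0.68). The summed intensity of the 3 stellate cell markers was 8518 to 16490 in M3, 8943 to 15420 in M4 and 3890 to 4868 in M8 channels, with the collagen gene Col1a1 lower (-2.25 and -1.82) and Lrat (-0.32 and -0.21) and Des (-0.40 and -0.29) not called. In F8/F3, where no Cyp3a probe was called lower, 6 of the 23 were called lower and none higher. Their part in the Cyp3a values was not tested.

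No Cyp3a probe was called higher in M8 than in the younger males by limma, and those with a ratio above 0 at an unadjusted p under 0.05 were Cyp3a25 and Cyp3a57, both in M8/M3. Cyp3a25 and Cyp3a57 had the highest M8/M3 ratios, 0.24 and 0.83 for the first and 0.24 and 0.67 for the second, fitted at 0.54 and 0.46 (limma adjusted p = 0.13 and 0.12). In M8/M4 their fitted ratios were -0.03 and -0.02. The Cyp3a41b call in M8/M3 was lost without replicate 1 (-1.17, adjusted p = 0.099), and that in M8/M4 without either array (-1.20, adjusted p = 0.088, and -0.77, adjusted p = 0.25) and with shared pools in the covariance (adjusted p = 0.092).

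Within females, the probes of Cyp3a41b and Cyp3a16 read higher at 8 wk than at 3 wk. Cyp3a41b had F8/F3 ratios of 1.23 and 1.63, fitted at 1.43 ± 0.23 (SE, n = 2 arrays; limma adjusted p = 0.0079), or 2.70-fold higher at 8 wk. The Cyp3a16 probe had 0.64 and 0.91, fitted at 0.77 ± 0.19 (adjusted p = 0.037), or 1.71-fold higher. Since the study describes this probe as also binding Cyp3a11 transcripts, the rise is given for the probe and not for the gene. These 2 of 11 probes compare with 5.31% of 26071 bright probes called higher. Cyp3a44 did not pass the test, with F8/F3 ratios of 0.07 and 0.65 (95% interval of the fitted ratio -0.25 to 0.97). Just short of the threshold stood the brighter Cyp3a59 probe at 0.47 (adjusted p = 0.057) and the dimmer Cyp3a13 probe at 0.42 (adjusted p = 0.050), both also below the ratio limit.

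In F8/F4 no Cyp3a probe was called (limma, 0 of 11, and 0 at an unadjusted p under 0.05), where 5.41% of 26469 bright probes were called in either direction. Cyp3a44 gave -0.60 and -0.56, the lowest of the family, with a fitted ratio of -0.58 (adjusted p = 0.21). The change from 3 to 4 wk, read as the difference of the comparisons with 8 wk, was called for none of the 11 probes in either sex by limma (0.228% and 0.0897% of all bright probes for males and females), with 1 probe in males and 3 in females at an unadjusted p under 0.05. In females it was 1.13 for Cyp3a41b (unadjusted p = 0.011, adjusted p = 0.29) and 0.94 for Cyp3a44 (unadjusted p = 0.036, adjusted p = 0.44), and averages weighted by the scanner software's errors called these 2 genes. The F8/F3 call of Cyp3a41b was lost without replicate 2 (1.17, adjusted p = 0.090) and that of Cyp3a16 without either array (0.83, adjusted p = 0.16, and 0.71, adjusted p = 0.21).

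**Figure D3:**
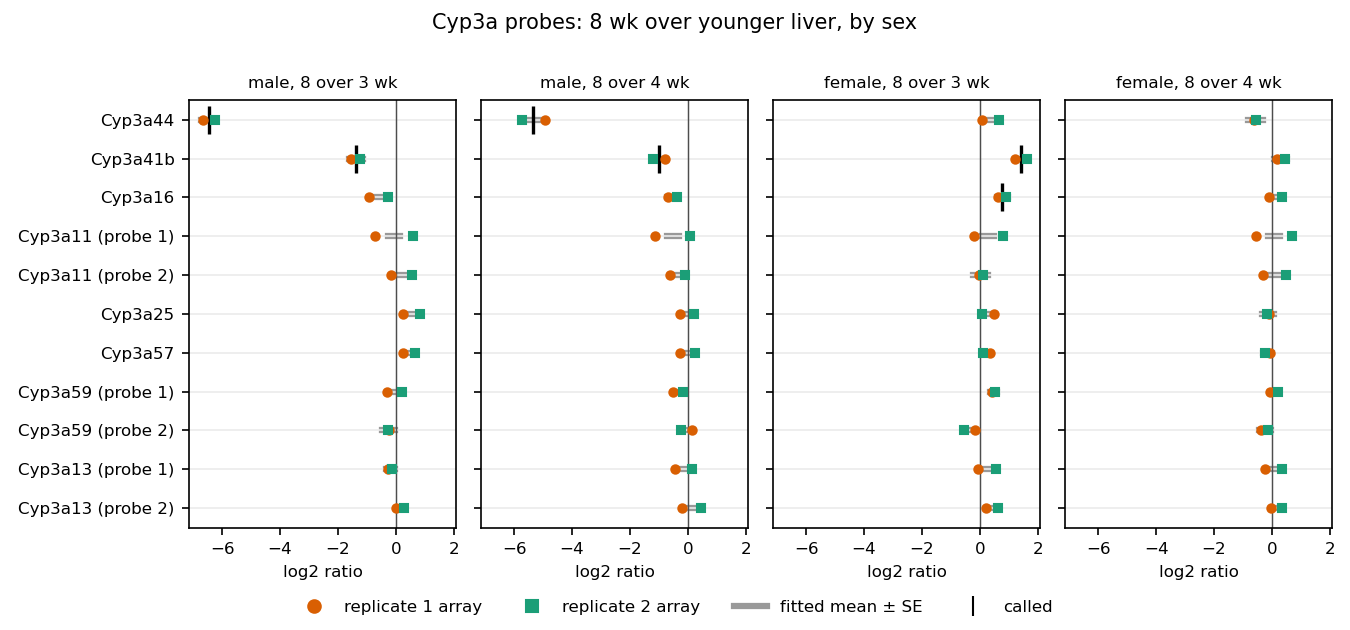
Log2 ratio of 8 wk over younger liver (x axis) for the 11 Cyp3a probes in males and females; points are the single arrays, grey bars the fitted mean ± SE and black ticks mark called probes. Cyp3a44 lies between -6.67 and -4.95 in the male panels and between -0.60 and 0.65 in the female panels.

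The levels of each probe were also ordered over the 6 groups, from log2 intensities normalized within and between arrays, in 4 channels per younger group and 6 per 8 wk group. For Cyp3a44 the order by median was F4 (16.19), F8 (15.70), M3 (15.46), F3 (15.23), M4 (14.57) and M8 (9.48). Of its 5 pairs of neighbours only M4 and M8 did not overlap, at a lowest of 14.32 in M4 and a highest of 9.81 in M8. For Cyp3a41b the order was F8 (17.13), F4 (16.66), M3 (16.43), M4 (16.08), F3 (15.99) and M8 (15.16), and for Cyp3a16 it was F8 (17.06), F4 (16.88), M3 (16.66), M4 (16.48), F3 (16.43) and M8 (15.97). In both, every pair of neighbours in the order overlapped. For Cyp3a25 the medians spanned only 16.85 (M3) to 17.26 (M8). Among the other probes, neighbours failed to overlap once, for the dimmer Cyp3a13 probe between M8 (lowest 13.38) and F8 (highest 13.34). These 2 of 11 probes compare with 26.6% of 22094 probes bright on every array that had such a gap between neighbours (6.80% of all their pairs of neighbours).

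**Figure D4:**
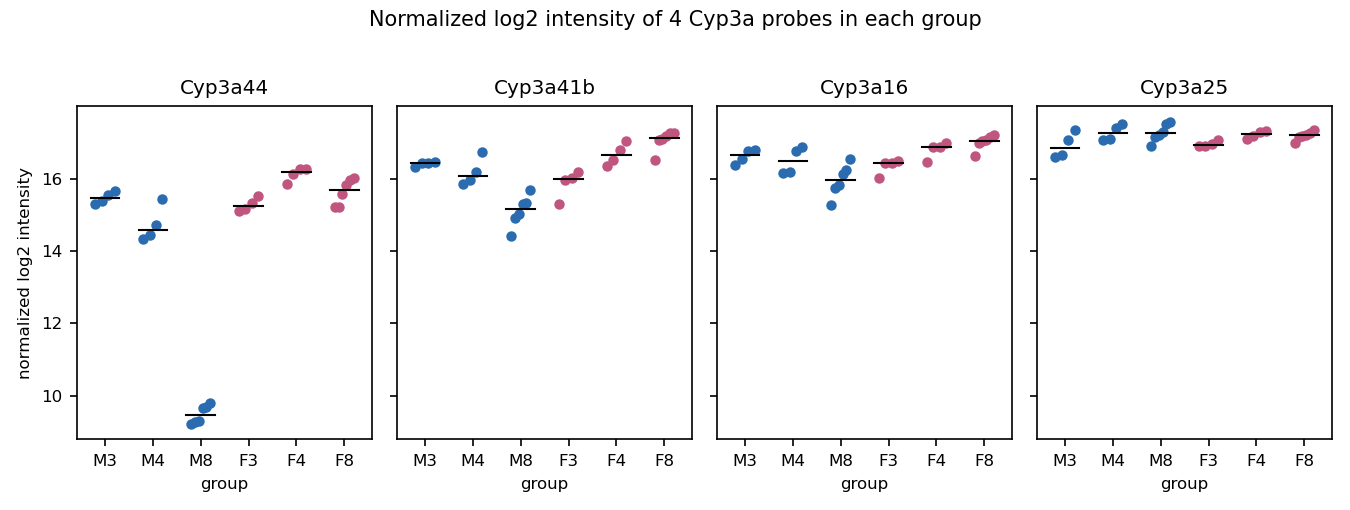
Normalized log2 intensity (y axis, shared) of the probes of Cyp3a44, Cyp3a41b, Cyp3a16 and Cyp3a25 in males (M, blue) and females (F, pink) at 3, 4 and 8 wk; each point is 1 array channel and lines are medians, and levels should not be compared between probes. The 6 M8 channels of Cyp3a44 lie between 9.22 and 9.81, below every other group.

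Probes of near-identical family members may bind each other's transcripts, as the study states for the Cyp3a16 probe, and since no probe sequences were in the files used here, this was not tested. The Cyp3a16 probe had r = 0.499 with the brighter and -0.023 with the other Cyp3a11 probe over the 14 arrays. Likeness of ratios over these arrays, which share pools, is given as a description. Cyp3a25 and Cyp3a57 were close to interchangeable (r = 0.966, root mean square difference 0.08), and Cyp3a41b followed Cyp3a16 (r = 0.947) more closely than Cyp3a44 (r = 0.882) in shape. The root mean square difference of Cyp3a41b and Cyp3a16 was 0.64. Probes of the same gene had a lower r than these pairs, with smaller differences than that. The 2 Cyp3a13 probes had r = 0.764 (difference 0.22) and the 2 Cyp3a11 probes r = 0.586 (difference 0.49). The 2 Cyp3a59 probes disagreed, with r = -0.244 and a difference of 0.50: the brighter one had r = 0.836 with Cyp3a16, and the dimmer one -0.212. F8/F3 was 0.47 with the brighter Cyp3a59 probe and -0.36 with the dimmer one, so no direction is given for this gene.

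The brighter Cyp3a11 probe also carried a dye effect. Its ratio was higher in all 7 comparisons on the array where the numerator group was red, by a fitted 0.44 ± 0.07 from the mean (limma adjusted p = 0.020), and its M8/M4 arrays read -1.13 and 0.09. No other Cyp3a probe had a dye term with an adjusted p under 0.05. This probe reached 83.5% of the scanner's saturation value, the highest of the 11.

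**Figure D5:**
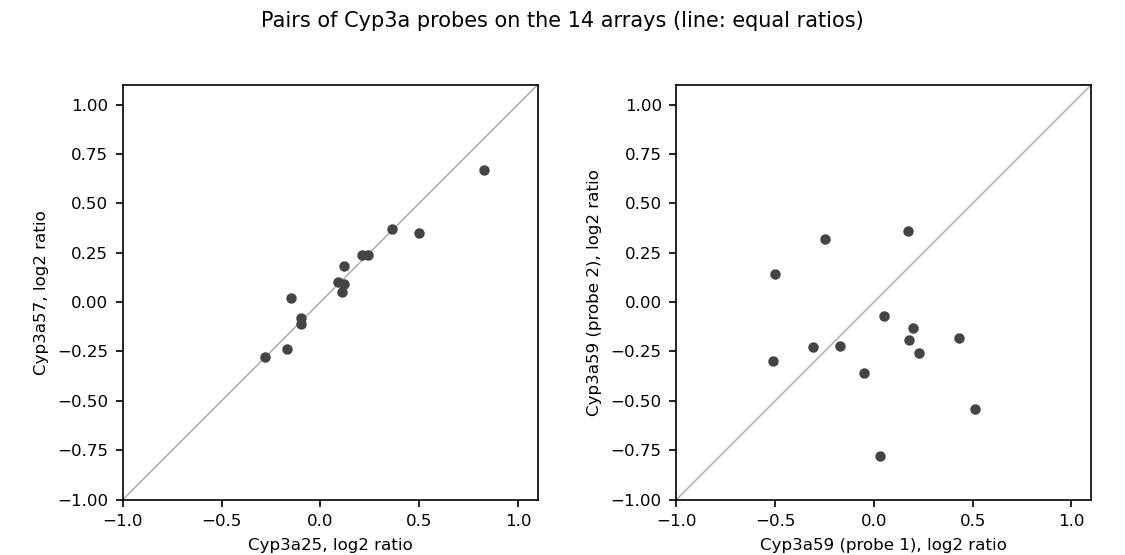
Log2 ratios of pairs of Cyp3a probes, 1 point per array (14 arrays), with the line of equal ratios. Left, Cyp3a57 against Cyp3a25 (r = 0.966); right, the dimmer against the brighter Cyp3a59 probe (r = -0.244).

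Among 13034 other genes bright in every array, the genes with ratios like those of Cyp3a44 included the sulfotransferase Sult2a2 (root mean square difference 0.90 over 14 arrays) and the transporter Slc22a27 (0.99). Most like Cyp3a41b were the cytochromes Cyp2c39 (0.44) and Cyp2b10 (0.49) and the cofactor Trim24 (0.53). Most like Cyp3a16 were the sulfotransferase Sult1a1 (0.27), the glutathione transferase Gstt3 (0.29) and the cytochrome Cyp2c54 (0.30). Cyp3a25 and Cyp3a57 shared Tbc1d15 (0.15 and 0.11) and Ric8a (0.18 and 0.15) among their nearest genes. These likenesses describe ratios over arrays that share pools.

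Of 18 receptors and factors known to act on Cyp3a genes, 1 was lower and none higher in M8/F8 (limma), where 3.49% of all bright probes were lower and 2.81% higher. It was Nr1i3, at -0.50 and -0.74 (fitted -0.62 ± 0.08, adjusted p = 0.0038). Nr1i3 was also higher in F8 than F3, at 0.82 (adjusted p = 0.0013), but its difference between the sexes from 3 to 8 wk was not called (-0.34, adjusted p = 0.19). Nr1i2 gave -0.28 (adjusted p = 0.14) and Hnf4a, a hepatocyte master regulator, 0.03 in M8/F8. In M4/F4 the coactivator Ppargc1a was the 1 list member called, at -1.10 (adjusted p = 0.014), beside 0.889% of all bright probes lower. In M3/F3 it was the factor Cebpb, at -0.60 (adjusted p = 0.046), beside 0.464% of all bright probes called in either direction.

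Of 11 genes of growth hormone signalling and sex-biased regulation, 3 were lower in male liver at 4 wk and at 8 wk, beside 0.889% and 3.49% of all bright probes. They were the repressor Cux2 (M4/F4 -3.07 and M8/F8 -4.98), the cofactor Trim24 (-1.19 and -2.0) and the DNA-binding protein Tox (-1.30 and -2.78), with limma adjusted p from 9.5e-05 to 0.0012. The study had named these 3 as female-specific on these same arrays, so their count cannot be weighed against those shares. None of the other genes on the list was called in M4/F4 or M8/F8. Of 13 genes that supply electrons or heme to cytochromes, Alas1, the rate-limiting enzyme of heme synthesis, and Por were lower in M8/F8, at -1.57 (adjusted p = 0.0020) and -0.94 (adjusted p = 0.015), 2 of 13 beside 3.49% of all bright probes.

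Of 10 other genes known to be induced through Nr1i2 or Nr1i3, 4 were lower and 2 higher in M8/F8, beside the 3.49% and 2.81% of all bright probes. Lowest in adjusted p were Cyp2b10 at -2.36 (limma adjusted p = 0.00024), the sulfate donor enzyme Papss2 at -1.48 (0.00078) and the drug pump Abcb1a at -1.13 (0.0016). Of the 8 protein-coding neighbours of the Cyp3a cluster with a probe, none was called in M8/F8 by limma (2 at an unadjusted p under 0.05, Zkscan14 at 0.20 and Cdk8 at 0.11), and of the 9 neighbours of Cyp3a13, Pilrb2 was lower in M8/F8 at -0.76 (adjusted p = 0.039). In M8/M3, 1 of the 8 neighbours of the cluster was higher, Zkscan14 at 0.69 (limma adjusted p = 0.00012), and 3 of the 9 of Cyp3a13, Azgp1 at 0.62, Smok3b at 0.76 and Gjc3 at 1.21 (0.00087 to 0.019), beside 8.24% of all bright probes. In M8/M4, Pilrb1 (-0.81) and Pilra (-0.74) were lower and Gjc3 (1.05) higher (limma adjusted p = 0.032 to 0.044), beside 5.43% lower and 4.65% higher among all bright probes.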

How the data were processed

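The submitters hybridized pooled liver RNA to 2-colour Agilent mouse 44k arrays, in green and red fluorophores, and pools held 5 mice at 3 wk and 6 mice at 4 and 8 wk. Per the file headers, Feature Extraction 10.7.1.1 subtracted background and normalized the dyes (linear and LOWESS), and the deposited log10 ratio of red over green, its error score and the intensity of each channel were used. The deposited series table held the same log10 ratios (largest difference 0). They were put on the log2 scale with the sign set by the dyes in the labels, male over female or older over younger. The study's methods describe the first male against female pair with the dyes reversed, but Y-linked transcripts and Xist followed the labels. Spots flagged as non-uniform were left out (no Cyp3a spot was) and spots of 1 probe averaged. Names came from the accession on the array through a RefSeq table (GRCm38.p6), which named 26055 of 39429 probes.

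The model was limma 3.58.1 in R 4.3.3 (lmFit, eBayes; prior degrees of freedom 0.856, residual 6) over 14 arrays with 7 comparisons and 1 dye term. It replaces the study's error-model software, which was not used here. Differences between comparisons were contrasts in that fit, with Benjamini-Hochberg adjustment over all probes. Calls used the thresholds given in the report. The number of arrays limits the precision. Levels by group used normexp correction (offset 50), loess and Aquantile on spot medians, since the columns used held no mean signals. Promoter windows were aligned globally (match 1, mismatch -1, gap -2). Replicate numbers were taken to mark shared pools: replicate differences correlated at 0.256 to 0.818 in the 6 pairs of comparisons with a shared group on the same side of the ratio and at -0.391 to -0.141 in the 4 pairs with it on opposite sides, the sign that a shared pool gives (-0.453 to 0.241 in 11 pairs sharing no group). The study names its pools for 1 comparison only. The scripts recovered known changes in simulated data with independent noise on each array. Such data hold no shared pools, so they do not test the p-values given here.

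All 11 Cyp3a probes are reported. Of the other lists (receptors and factors, growth hormone, electron donors and heme, induced genes, genomic neighbours), called genes with the lowest adjusted p are named in the comparisons described, at most 3 per list and comparison, plus Nr1i2, Nr1i3, Por and Hnf4a, with the brightest probe for each gene. Zkscan14 and Cdk8 were named after their values were seen. Likeness was the root mean square difference of log2 ratios over 14 arrays. Not every gene this measure named is reported here. The members and the lists were chosen with earlier results of these data known. Alternatives covered the dye term, replicate and slide terms, group means, shared pools, background correction, filters, thresholds, error weighting and each array left out.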

Additional observations from a re-analysis of the deposited data

Results flagged for a closer look

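In the main fit, the change from 3 to 8 wk differed between males and females for 3 Cyp3a genes, and that from 4 to 8 wk for Cyp3a44 alone, by limma's test of the difference itself. From 3 to 8 wk the difference (male minus female change, log2) was -6.82 for Cyp3a44 (adjusted p = 0.00097), -2.80 for Cyp3a41b (adjusted p = 0.0082) and -1.36 for Cyp3a16 (adjusted p = 0.040; 0.059 with shared pools in the covariance). For Cyp3a44 the male value was -6.46 and the female 0.36, for Cyp3a41b -1.37 and 1.43, and for Cyp3a16 -0.59 and 0.77. From 4 to 8 wk the difference was -4.76 for Cyp3a44 (adjusted p = 0.0056), from a male value of -5.34 and a female value of -0.58, while Cyp3a41b (-1.29, adjusted p = 0.14) and Cyp3a16 (-0.65, adjusted p = 0.36) did not pass the test. With 6 group means, Cyp3a41b (-1.44, limma adjusted p = 0.0026) and Cyp3a16 (-0.71, 0.031) were called. Each comparison had 2 arrays, so no single array was tested as standing apart.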

How the results depend on the processing

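Among the calls counted by comparison, the count of Cyp3a probes called in M8/F8 (3) and in F8/F4 (0) stayed within 1.5 times in every alternative run for it, as did the male change from 3 to 4 wk (0). In M4/F4 (3 called), the count was 1 with a dye term for each pair of slides, 1 with adjustment within the comparison, 1 at a ratio of 2 and 0 at an unadjusted p under 0.0001. In M8/M3 (2 called) it was 1 at an unadjusted p under 0.0001. In M8/M4 (2 called) it was 1 with shared pools in the covariance, 1 at a ratio of 2 and 1 at an unadjusted p under 0.0001. In F8/F3 (2 called) it was 1 at a ratio of 2 and 0 at an unadjusted p under 0.0001. For M8/M4 minus F8/F4 (1 called) it was 2 with the replicate block, 3 with 6 group means and 2 with error-weighted averages. For F8/F3 minus F8/F4 (0 called) it was 1 with 6 group means and 2 with error-weighted averages. Leaving out single arrays gave 0 to 1 in M3/F3, 0 to 2 in M4/F4, 1 to 2 in M8/M3, 1 in M8/M4, 0 to 1 in F8/F3 and 1 to 2 for M8/M3 minus F8/F3. The cause of these changes was not tested, beyond the stricter threshold or fewer arrays. No called Cyp3a value changed sign in any of these alternatives.

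Beyond the calls given in the report, neither the replicate block nor shared pools in the covariance changed a call. Terms for single slides could not be fitted beside the comparisons, so each pair of dye-swapped slides had 1 dye term. Among all values by probe, comparison and alternative, 15 gained and 35 lost a call, while 1803 stayed as they were and 72 uncalled values moved by more than the spread. With 2 arrays per comparison, small differences cannot be told from the spread.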
